A study of Mus musculus with 16 samples.

Results

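Retinoic acid (RA) changes the expression of many genes in mouse embryonic stem cells, and the question here was which genes answered it differently in cells with less Sirt1. The quantity described is a difference of differences: the RA effect in the sh-SIRT1 line minus the RA effect in the sh-Control line, as log2. It was examined for 16422 genes of the 18296 in the fit, namely those whose probe was well above background on every array of at least 3 of the 4 groups. Of these 16422 genes, 15720 were above background on all arrays of all 4 groups and 702 in exactly 3, and 12685 carried a gene symbol. A positive difference means that RA moved the gene further up, or less far down, in sh-SIRT1 cells.

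The cells were E14 mouse embryonic stem cells carrying a lentiviral short hairpin RNA (shRNA), stably expressed, of a control design in the sh-Control line and against Sirt1 in the sh-SIRT1 line. Sirt1 encodes a deacetylase that uses NAD. Every culture grew in medium with 10% serum and the cytokine the labels call leukocyte inhibitory factor, and received ethanol (vehicle) or 20 nM RA for 2 days. There were 3 sh-Control vehicle arrays, 3 sh-SIRT1 vehicle arrays, 4 sh-Control RA arrays and 6 sh-SIRT1 RA arrays, 16 in all. The labels name 1 control hairpin and 1 Sirt1 hairpin without saying whether cells were infected more than once, so the hairpin and the history of its cells cannot be told apart.

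Retinoic acid is made from vitamin A. Inside the cell it is carried by binding proteins such as CRABP2, and in the nucleus it binds RAR-RXR receptor pairs that sit on direct repeats of a short half-site. Among the genes that these receptors switch on are Hox genes and the enzymes that remove retinoic acid again, which makes the response self-limiting. In embryonic stem cells RA is widely used to start differentiation.

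Sirt1 itself marked the lines. On a log2 scale relative to the 75th percentile of each array, it read 3.85, 3.52 and 3.60 in sh-Control vehicle, 3.47, 3.28, 3.35 and 3.33 in sh-Control RA, 1.84, 1.88 and 1.82 in sh-SIRT1 vehicle, and from 0.92 to 1.59 in sh-SIRT1 RA. The lines did not overlap in either treatment. The difference of its RA effects was -0.37 ± 0.20 (standard error, SE, as throughout; adjusted p = 0.315), so RA was not shown to change Sirt1 differently in the lines. The 6 stem cell markers examined, among them Pou5f1 and Nanog, were above background on all arrays of all 4 groups.

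The arrays of a group were not equally alike, which bears on every p-value below. The SD of the log2 difference between 2 arrays of a group ran from 0.156 to 0.668. Vehicle arrays 2 and 3 of each line, sh-Control RA arrays 3 and 4, sh-SIRT1 RA arrays 1 and 2, and sh-SIRT1 RA arrays 3 to 6 lay closest together. The design text mentions pairs of the lines and duplicates without saying which arrays these are, so p-values measure the spread between arrays, part of which may be technical. With such closely matched arrays averaged, an alternative chosen after seeing the data, 9 samples and 5 residual degrees of freedom remained: limma then called 0 genes at an adjusted p under 0.05, with 670 at an unadjusted p under 0.05. The calls below therefore hold only if the 16 arrays count as separate samples.

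The sh-Control RA group was also uneven. The Y-linked gene Ddx3y read 0.22 on its array 1 but -6.92, -8.01 and -8.12 on arrays 2, 3 and 4, while the other 3 groups lay between 0.32 and 1.60. Gata6, an endoderm transcription factor, read 3.02 on array 1 against 0.07, 0.40 and 0.49. By their labels all 4 arrays hold the same line as the sh-Control vehicle arrays, on all 3 of which Ddx3y was high. Whether the 4 arrays hold RNA of the same cells was not tested, and every sh-Control RA effect below rests on them. Without array 1 the difference of RA effects of Ddx3y was 7.92 (limma, adjusted p = 1.4e-06), with array 1 alone it was 0.01, and with all 4 arrays 5.95 (adjusted p = 0.101). Where it matters, a result is therefore also given with array 1 as the only sh-Control RA array and without it. With array 1 alone that group has 1 sample, which the test assumes to vary like the other groups, so its p-values hold no spread of that group.

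Across the 16422 genes, 593 passed an adjusted p of 0.05 (limma, Benjamini-Hochberg over all genes in the fit), which is 3.61% of them. The RA effect was higher in sh-SIRT1 for 274 (1.67%) and lower for 319 (1.94%), and 3288 genes had an unadjusted p under 0.05. Among the 194 genes (1.18%) that differed by at least 1 log2 unit, 156 were higher and 38 lower. The median difference over all genes was -0.04, with the middle 50% between -0.25 and 0.23 and 45.4% of values above 0. Centring each array on its median moved that overall median to -0.17 and the split to 153 higher of 545 called (28.1%, against 46.2%), and normexp background correction left 21 calls, 14 of them higher (66.7%). Pairing same-numbered arrays of the lines as a block raised the count to 1478, with slide as a block it was 76, and with sh-Control RA array 1 alone it was 173. Without that array it was 1682.

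The fitted RA effects of called genes often had opposite signs in the lines, which is a count of signs and not of tested changes. These genes were chosen for a difference between the RA effects, which by itself favours opposite signs. That difference equals the line difference under RA minus that in vehicle, so a shift between treatments follows from the choice too. The same counts over all genes are not given here. Of the 274 with a higher difference, the fitted RA effect was negative in sh-Control and positive in sh-SIRT1 for 140, positive in both for 103 and negative in both for 31. For 166 of them the lines lay further apart in vehicle than under RA, and the median line difference (sh-SIRT1 minus sh-Control) was -0.64 in vehicle and 0.43 under RA. Of the 319 with a lower difference, 136 had a positive RA effect in sh-Control and a negative effect in sh-SIRT1, 133 were negative in both and 50 positive in both. Between the lines these genes differed by a median of 0.31 in vehicle and by -0.35 with RA. The called genes thus included some whose lines lay further apart in vehicle and some whose lines lay further apart under RA.

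**Figure D1:**
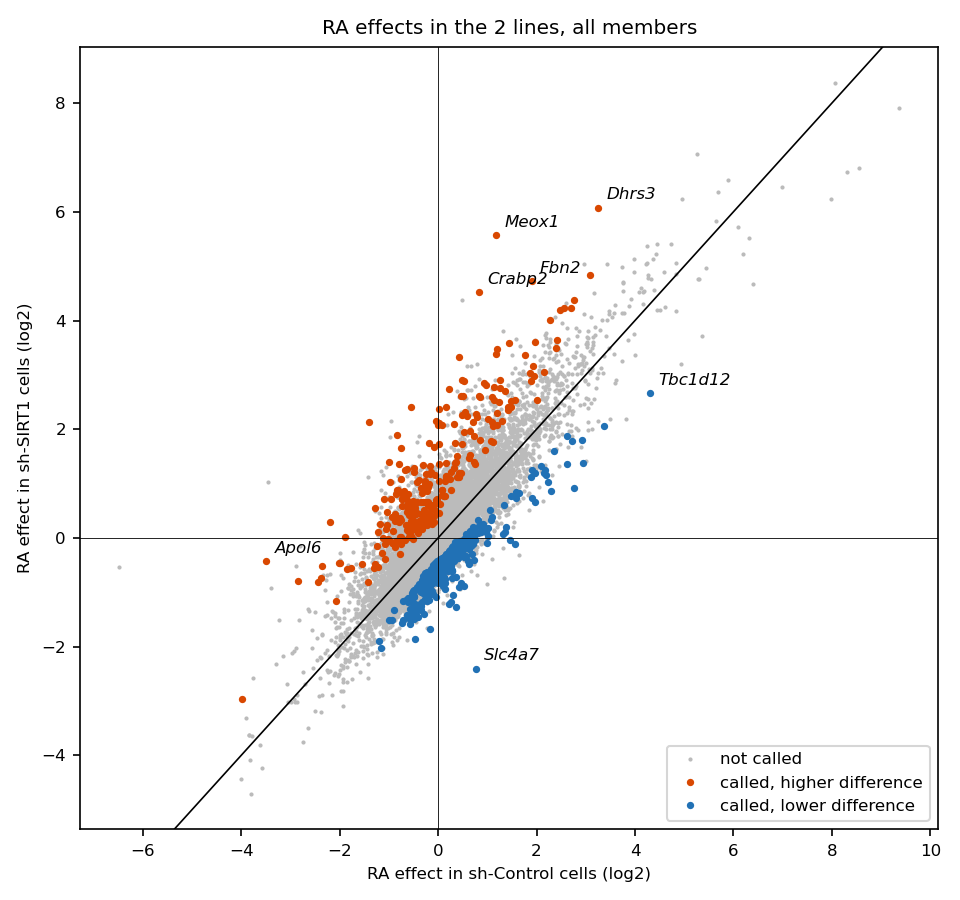
Each point is one of the 16422 genes, with the RA effect (log2, RA minus vehicle) in sh-Control cells on the horizontal axis and in sh-SIRT1 cells on the vertical axis; the diagonal marks equal effects. The 274 called genes with a higher difference lie above it and the 319 with a lower difference below it, with Slc4a7 alone far below at 0.77 and -2.40.

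Slc4a7 stood furthest below. It encodes an electroneutral sodium bicarbonate cotransporter that helps cells hold their pH; its probe lies on chromosome 14 at 12552686 to 12552745 in the mouse build mm7 (which exon or untranslated region it falls in was not analysed here). It read 0.72, 0.12 and 0.28 in sh-Control vehicle, 1.56, 1.24, 1.11 and 0.66 in sh-Control RA, 1.78, 1.99 and 1.94 in sh-SIRT1 vehicle, and from -0.59 to -0.33 with a median of -0.51 in sh-SIRT1 RA. The sh-SIRT1 line was thus the higher one in vehicle and the lower one under RA, with no overlap of the lines in either treatment. Slc4a7 rose by 0.77 with RA in sh-Control and fell by 2.40 in sh-SIRT1, a difference of -3.17 ± 0.24 or 9.01-fold (adjusted p = 4.57e-05). It was -3.59 with sh-Control RA array 1 alone and -3.03 without it, and its call was lost in no alternative but the averaging of closely matched arrays (-3.12, adjusted p = 0.39).

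The Slc4 family did not move as one. Of its 6 measured transporters, Slc4a3, an anion exchanger, was called in the other direction at 0.84 ± 0.17 (adjusted p = 0.0189), and the median over the 6 was 0.41. Slc4a3 rose by 1.09 in sh-SIRT1, against a value of 0.25 in sh-Control.

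Crabp2, which hands retinoic acid to its receptors, had the largest difference among the genes of the retinoid pathway. Its probe lies on chromosome 3 at 88062561 to 88062620 (mm7). It read -4.23, -4.42 and -4.48 in sh-Control vehicle, -3.60, -3.29, -3.64 and -3.68 in sh-Control RA, -5.00, -5.47 and -5.16 in sh-SIRT1 vehicle, and from -1.57 to -0.13 with a median of -0.53 in sh-SIRT1 RA. All 6 sh-SIRT1 RA arrays lay above every other array. Crabp2 rose by 0.83 in sh-Control and by 4.53 in sh-SIRT1, and the difference was 3.70 ± 0.38 or 13.0-fold (adjusted p = 0.000525). It was above background on 2 of the 3 sh-SIRT1 vehicle arrays, so the size of the rise there rests partly on a level near background. The call was lost after normexp background correction (2.20, adjusted p = 0.078), but stood with sh-Control RA array 1 alone (3.75) and without it (3.68).

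Meox1, a homeobox gene of the somites and paraxial mesoderm, had the largest called difference of all genes with a symbol. Its probe lies on chromosome 11 at 101986522 to 101986562 (mm7). It read -4.30, -3.13 and -3.14 in sh-Control vehicle, -1.03, -1.25, -3.42 and -3.68 in sh-Control RA, -4.87, -3.94 and -4.39 in sh-SIRT1 vehicle, and from 0.70 to 1.89 with a median of 0.99 in sh-SIRT1 RA. The sh-SIRT1 RA arrays were the highest, and sh-Control RA split into a higher and a lower pair of arrays. Meox1 rose by 5.58 in sh-SIRT1, against 1.18 in sh-Control (adjusted p = 0.11), and the difference was 4.40 ± 0.80 or 21.1-fold (adjusted p = 0.0114). It was 3.08 with sh-Control RA array 1 alone and 4.84 without it; a further probe of the gene gave 4.44. With slide as a block it was 3.85 and not called (adjusted p = 0.0759).

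**Figure D2:**
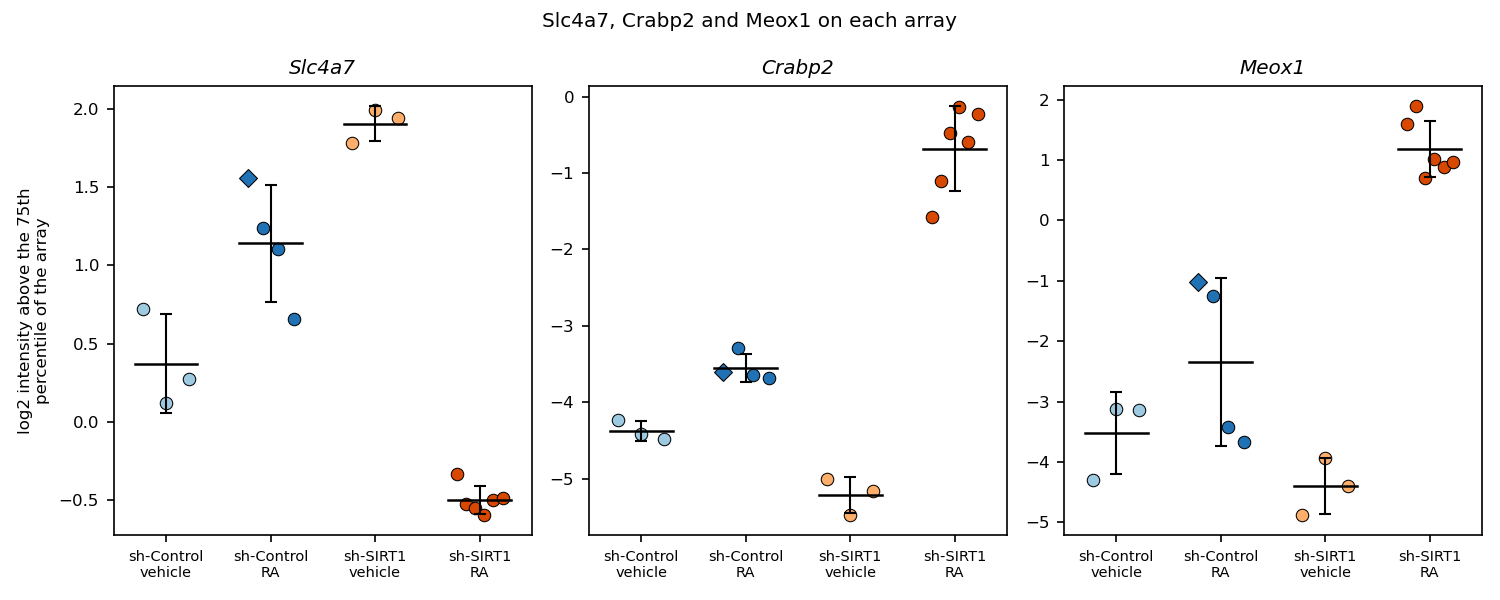
Level of Slc4a7, Crabp2 and Meox1 on each of the 16 arrays, as log2 intensity above the 75th percentile of the array; points are arrays, the diamond is sh-Control RA array 1, and bars are the group mean ± SD. Slc4a7 was lowest and Crabp2 and Meox1 highest on the 6 sh-SIRT1 RA arrays.

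Of 5 retinoid carriers measured, Crabp2 and Rbp4 were called higher and none lower, beside 1.67% called higher over all genes. All 5 values were above 0, beside 45.4% over all genes, with a median of 0.82. The list was chosen with earlier results of these data known, so these shares are no test. Rbp4, the carrier of retinol in blood, read -1.13, -0.96 and -1.04 in sh-Control vehicle, 1.46, 0.53, 0.85 and 0.85 in sh-Control RA, -3.78, -2.52 and -2.46 in sh-SIRT1 vehicle, and from 0.52 to 0.77 in sh-SIRT1 RA. The lines were apart in vehicle and overlapped under RA. Rbp4 rose by 1.97 in sh-Control and 3.60 in sh-SIRT1, a difference of 1.63 ± 0.36 (adjusted p = 0.0268). Stra6, the cell-surface receptor that takes up retinol, had 0.82 ± 0.25 and missed the threshold (adjusted p = 0.077), as did Crabp1 (0.30).

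The median over 7 enzymes of retinoic acid synthesis and breakdown was -0.07. Of these, 1 was called higher and none lower, beside 1.67% called higher over all genes. Dhrs3, which turns retinaldehyde back into retinol, was the one. It read -2.40, -2.75 and -2.82 in sh-Control vehicle, 0.32, -0.18, 1.14 and 1.12 in sh-Control RA, -3.83, -3.91 and -4.26 in sh-SIRT1 vehicle, and from 0.80 to 2.91 with a median of 2.52 in sh-SIRT1 RA. It rose in both lines, by 3.26 and 6.08, and the difference was 2.82 ± 0.68 (adjusted p = 0.037). This call was lost in 19 of 31 alternatives with a test, among them sh-Control RA array 1 alone (adjusted p = 0.12), while without array 1 it stood (2.73, adjusted p = 0.032). Cyp26b1, a retinoic acid hydroxylase, had 1.11 ± 0.58, and the retinaldehyde dehydrogenases Aldh1a1, Aldh1a2 and Aldh1a3 had -0.09, -0.40 and 0.25; none passed the test.

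None of the 11 measured receptors and coregulators was called in either direction, with a median of 0.17 and the lowest value at -0.80 (Rxrg). The receptors Rara, Rarg, Rxra and Rxrb had values of 0.27, -0.11, 0.27 and 0.17.

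Stra8, a gene of meiotic entry and a classical RA target, was not called either. It rose by 8.07 in sh-Control and 8.38 in sh-SIRT1, a difference of 0.31 ± 0.82 with a 95% interval from -1.45 to 2.06. The arrays of the RA groups split: Stra8 read 6.67, 6.51, 8.03 and 7.98 in sh-Control RA and 5.30 on both sh-SIRT1 RA arrays 1 and 2, against 7.14 to 7.34 on the remaining 4.

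The receptor gene Rarb, the retinoic acid hydroxylase gene Cyp26a1 and Hoxb1 were below background on some or all vehicle arrays of both lines, and so fall outside the 16422 genes. Rarb rose by 4.69 and 6.10, with a difference of 1.41 ± 0.50 (adjusted p = 0.127), and Cyp26a1 by 6.97 and 6.42, with a difference of -0.56 ± 0.89 (adjusted p = 0.78). Hoxb1 rose by 6.37 and 8.50, with a difference of 2.13 ± 0.77 (adjusted p = 0.131). Because their vehicle levels lay near or below background, these values are no sizes of the difference. With same-numbered arrays paired as a block, Cyp26a1 passed the test at -0.89 (adjusted p = 0.0397).

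**Figure D3:**
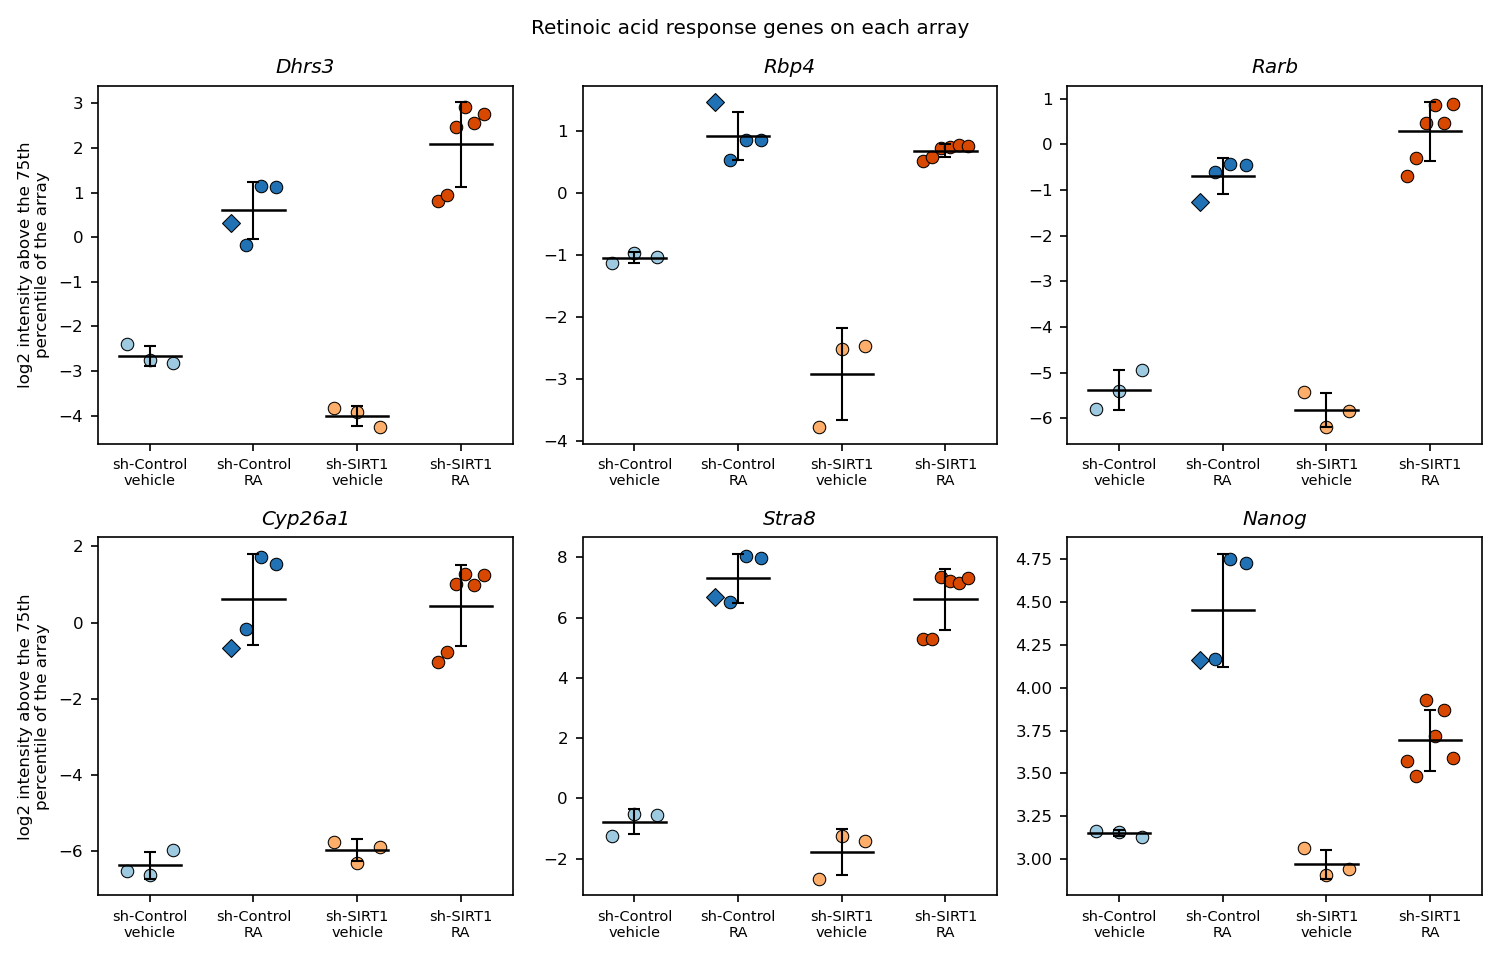
Level of 6 genes that responded to retinoic acid on each of the 16 arrays, as log2 intensity above the 75th percentile of the array; points are arrays, the diamond is sh-Control RA array 1, and bars are the group mean ± SD. Dhrs3 and Rbp4 passed the test of the difference (2.82 and 1.63); Rarb, Cyp26a1, Stra8 and Nanog rose in both lines without passing it.

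Promoter sequences are shown for 2 classical targets and 2 called genes. The 4 stretches are 150 bases long, end 1 base before the annotated start, are written 5′ to 3′ on the gene's strand, and come from RefSeq (build GRCm38.p6). Capitals mark a direct repeat of 2 half-sites on either strand, a half-site being AGGTCA, with G allowed for its first letter and T for its second G, with 5 bases between. Rarb and Cyp26a1 are shown because they hold one, Slc4a7 and Dhrs3 because they were called and no such repeat was found. Dhrs3 has 3 annotated starts, of which the first is shown, and no repeat was found at any of them.
Rarb, chr14:16575477-16575626, minus strand: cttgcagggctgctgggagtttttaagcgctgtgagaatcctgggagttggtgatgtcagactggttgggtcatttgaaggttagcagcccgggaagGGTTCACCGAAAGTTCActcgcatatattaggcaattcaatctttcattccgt
Cyp26a1, chr19:37697658-37697807, plus strand: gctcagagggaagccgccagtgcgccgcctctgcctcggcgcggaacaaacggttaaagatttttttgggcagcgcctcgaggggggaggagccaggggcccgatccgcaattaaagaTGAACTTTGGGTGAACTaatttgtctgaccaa
Dhrs3, chr4:144892677-144892826, plus strand: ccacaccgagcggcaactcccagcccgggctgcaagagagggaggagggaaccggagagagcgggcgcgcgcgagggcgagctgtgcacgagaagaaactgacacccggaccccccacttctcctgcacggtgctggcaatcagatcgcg
Slc4a7, chr14:14718634-14718783, plus strand: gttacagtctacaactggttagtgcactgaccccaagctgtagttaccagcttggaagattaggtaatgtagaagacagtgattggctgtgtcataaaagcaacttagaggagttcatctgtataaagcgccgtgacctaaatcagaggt

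The repeat starts 53 bases before the start of Rarb and 32 bases before that of Cyp26a1, where it lies on the opposite strand and reads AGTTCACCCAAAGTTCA. Counting repeats with 1, 2 or 5 bases between in the window from 250 bases before to 50 after the start, 186 of 27025 genes with a promoter sequence held one (0.688%). Among the 16422 genes it was 34 of the 10139 matched (0.335%), among the called ones 0 of 172 with a higher difference and 1 of 210 with a lower difference. Of the 48 genes named by rule, 35 had a promoter sequence and 2 of these, Rarb and Cyp26a1, held such a repeat. A match is a description of the letters only, and response elements outside this window were not looked for.

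The median over 10 Hox genes above background in enough groups was 0.36. Of these, 1 was called higher and none lower, beside 1.67% called higher over all genes. Hoxc5, the called one, had 1.44 ± 0.37 (adjusted p = 0.0467), with 1.06 in sh-SIRT1 and -0.38 in sh-Control; pairing same-numbered arrays gave 1.34 and ended the call (adjusted p = 0.0539). None of the 11 Hox cofactors and Cdx genes was called; 9 of 11 values were above 0 and the median was 0.50. It was 0.19, 0.33, 0.24 and 0.27 without sh-Control vehicle array 1, sh-SIRT1 vehicle array 3 and sh-Control RA arrays 3 and 4 in turn, and 0.14 with sh-Control RA array 1 alone. Of 30 Hox genes in the fit, 17 were above background on no vehicle array of sh-Control.

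Among the other genes with a higher difference, several parted mainly under RA. Apol6, an apolipoprotein L gene, read 2.49, 1.45 and 1.45 in sh-Control vehicle and -0.07, -2.50, -2.20 and -2.02 in sh-Control RA, but 1.34, 1.69 and 1.70 in sh-SIRT1 vehicle and from 0.98 to 1.71 in sh-SIRT1 RA. It fell by 3.49 with RA in sh-Control, against -0.43 in sh-SIRT1, a difference of 3.06 ± 0.61 (adjusted p = 0.0178); with sh-Control RA array 1 alone it was 1.44 (adjusted p = 0.15), and without it 3.61. Nes, an intermediate filament gene of neural progenitors, rose by 0.65 in sh-Control and 1.97 in sh-SIRT1 (difference 1.31 ± 0.28, adjusted p = 0.0244). Cdkn1a, the cell cycle inhibitor p21, rose by 0.67 in sh-SIRT1 with a value of -0.30 in sh-Control (0.97 ± 0.18, adjusted p = 0.0123).

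In another set the lines stood apart in vehicle and came together under RA. Rusc2, which encodes a RUN and SH3 domain protein, read 1.68, 1.55 and 1.55 in sh-Control vehicle, -2.13, -1.0 and -1.05 in sh-SIRT1 vehicle, 1.93, 0.63, 0.83 and 0.81 in sh-Control RA and from 0.92 to 1.30 in sh-SIRT1 RA. The sh-SIRT1 line was lower in vehicle by 2.99 and overlapped with sh-Control under RA, where the line difference was -0.03. Its difference of RA effects was 2.96 ± 0.40 (adjusted p = 0.00277), with 2.08 for sh-Control RA array 1 alone and 3.25 without it. Plet1, a gene of placental epithelium and trophoblast, had 2.41 ± 0.52 with line differences of -3.19 in vehicle and -0.78 under RA. Btbd17, which encodes a BTB domain protein, had 2.72 ± 0.47 with -2.37 and 0.36. Dusp26, a phosphatase gene, had 2.53 ± 0.59 with -2.10 and 0.42, and its call was lost in 15 of 31 alternatives. Within slide 1 its difference was 0.79. That slide holds sh-Control vehicle array 1, sh-SIRT1 vehicle array 2, sh-Control RA array 3 and sh-SIRT1 RA array 4. On sh-Control vehicle array 1 Dusp26 read -2.44, against -0.69 and -0.73 on arrays 2 and 3 of that group. Pld1, a phospholipase D gene, had 2.37 ± 0.49, and was above background on 2 of 3 sh-SIRT1 vehicle arrays, so its vehicle level is partly at background. The difference was 1.13 after normexp and 0.73 within slide 1, and the call was lost after normexp (adjusted p = 0.235), with slide as a block (adjusted p = 0.113) and with sh-Control RA array 1 alone (adjusted p = 0.13).

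A last set crossed over: lower than sh-Control in vehicle and higher under RA. Tgfbi, a secreted matrix protein, read 1.57, 2.16 and 2.15 in sh-Control vehicle, 2.93, 2.51, 2.09 and 2.05 in sh-Control RA, -0.68, 0.44 and 0.48 in sh-SIRT1 vehicle, and from 3.23 to 3.53 in sh-SIRT1 RA. It rose by 3.33 in sh-SIRT1 against 0.43 in sh-Control, a difference of 2.89 ± 0.37 (adjusted p = 0.00179), 2.35 with sh-Control RA array 1 alone and 3.07 without it. Fbn2, the microfibril protein fibrillin 2, rose by 1.90 and 4.72 (2.82 ± 0.50, adjusted p = 0.0105), with line differences of -1.60 in vehicle and 1.22 under RA.

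Dmgdh, a mitochondrial enzyme of choline breakdown, had 2.42 ± 0.51, and Ndnf, a secreted neurotrophic factor, 2.16 ± 0.39; both were called. Dmgdh rested in part on the uneven sh-Control RA group, with 1.13 for array 1 alone and 2.85 without it. Ndnf was above background on 2 of 3 sh-SIRT1 vehicle arrays; after normexp it was 0.82 and with sh-Control RA array 1 alone 1.68, neither of them called (adjusted p = 0.81 and 0.125).

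The genes with a lower difference moved less. After Slc4a7, the next lowest called gene with a symbol and above background in all 4 groups was Sox18. This transcription factor of developing blood vessels had -1.69 ± 0.41 (limma, adjusted p = 0.0395). It rose by 1.57 with RA in sh-Control, against -0.12 in sh-SIRT1; with sh-Control RA array 1 alone the difference was -0.98 and not called.

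Several of them rose with RA in both lines, but less in sh-SIRT1. Tbc1d12, which encodes a TBC domain protein of Rab signalling, rose by 4.30 and 2.67 (-1.63 ± 0.34, adjusted p = 0.0209). Irx2, an Iroquois homeobox gene, read -4.31, -4.35 and -4.28 in sh-Control vehicle, -2.22, -3.10 and -3.06 in sh-SIRT1 vehicle, -1.12, -1.39, -1.48 and -1.48 in sh-Control RA and from -1.64 to -1.07 in sh-SIRT1 RA. The lines were apart in vehicle and overlapped under RA, and the difference was -1.57 ± 0.27 (adjusted p = 0.00917). Stxbp6, which encodes a SNARE-binding protein, rose by 2.29 and 0.86 (-1.42 ± 0.33, adjusted p = 0.0336).

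Calcr, the calcitonin receptor, rose by 1.47 in sh-Control with a value of -0.05 in sh-SIRT1 (-1.51 ± 0.25, adjusted p = 0.00846). The remaining ones fell in sh-SIRT1 with no called change in sh-Control: Slc25a40, a mitochondrial carrier, fell by 1.67 against -0.17 (difference -1.50 ± 0.25). Hsf2, a heat shock factor, fell by 1.22 against 0.22 (-1.44 ± 0.26). Net1, a guanine nucleotide exchange factor for RhoA, had a difference of -1.40 ± 0.28, and Rgs9bp, which anchors a regulator of G-protein signalling, -1.32 ± 0.27.

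Bhlhe22, a neuronal transcription factor, Map3k2, a kinase of the MAPK cascade, and the odorant receptor gene Olfr658 were above background on 0 of the 3 sh-Control vehicle arrays. Their values of -1.84 (Bhlhe22), -1.18 (Map3k2) and -1.17 (Olfr658) passed the test but are no sizes of the difference, since the vehicle level of sh-Control was not well above background. Hdgfl3, of the hepatoma-derived growth factor family, was above background on 2 of those 3 arrays and had -0.96 ± 0.24. For Bhlhe22 the value was -0.04 after normexp correction. Pairing same-numbered arrays ended the call of Olfr658 (-1.25, adjusted p = 0.0575).

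**Figure D4:**
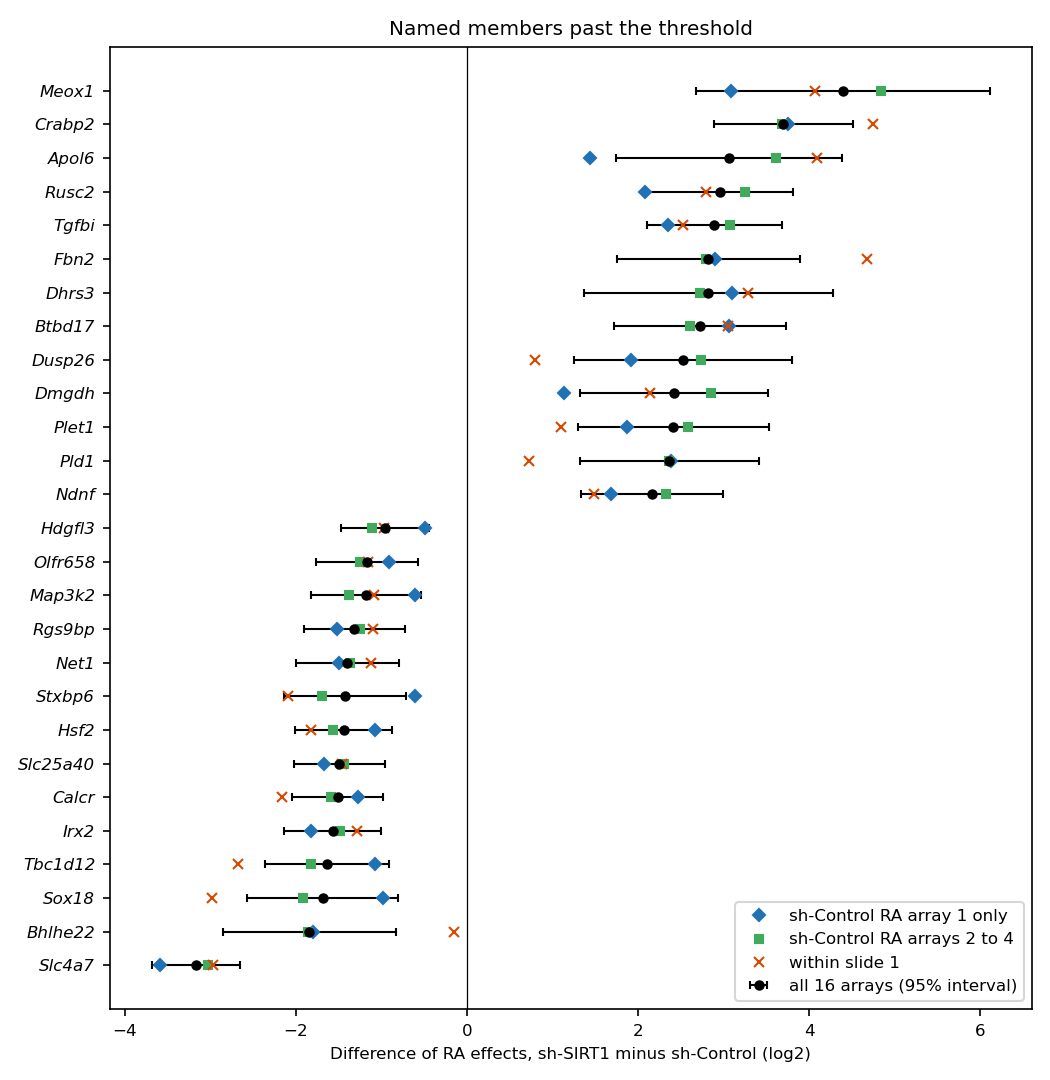
Difference of RA effects (log2, sh-SIRT1 minus sh-Control) for the 3 markers and the genes with the largest called differences; black points with 95% intervals use all 16 arrays, diamonds use sh-Control RA array 1 alone, squares leave that array out, and crosses use the 4 arrays of slide 1. Each gene kept its sign in all 4 values, while sizes varied, as for Apol6 (1.44 with array 1 alone, 3.61 without it).

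Of the named genes, 9 kept their call both with sh-Control RA array 1 alone and without it: Meox1, Crabp2, Rusc2, Tgfbi, Btbd17, Slc4a3, Slc25a40, Irx2 and Slc4a7. The first of these tests has 1 sample in that group, as said above. The call of other genes was lost in many alternatives with a test: in 16 of 31 for Sox18, 15 of 31 for Stxbp6 and for Nid1, 18 of 31 for Hoxc5, 20 of 30 for Map3k2 and for Bhlhe22, and 21 of 30 for Hdgfl3.

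Endoderm genes gave values that turned on the uneven group. RA-treated stem cells can form extraembryonic endoderm, whose cells secrete basement membrane. Of 17 parietal and visceral endoderm products, 3 were called higher and none lower, beside 1.67% called higher over all genes. Their median was 0.94. Lrp2, the endocytic receptor megalin, rose by 2.31 in sh-SIRT1 with 0.54 in sh-Control (1.77 ± 0.34, adjusted p = 0.0138). Nid1, a basement membrane protein, had 1.26 ± 0.29 (adjusted p = 0.0327), and the third was Rbp4. In vehicle, Lrp2 averaged 1.54 in sh-Control and -0.07 in sh-SIRT1, but 2.08 and 2.24 under RA. Nid1 likewise averaged 3.24 and 1.84 in vehicle, but 2.91 and 2.76 under RA. The lines of these 2 genes thus lay further apart in vehicle than under RA. The mean level over the 17 ran from -0.88 to -0.64 in sh-Control vehicle and from -1.775 to -1.45 in sh-SIRT1 vehicle. Under RA it was 2.72 on sh-Control array 1, and 1.04, 0.04 and 0.03 on arrays 2, 3 and 4. Over the sh-SIRT1 RA arrays it was 0.67 to 1.45. With array 1 alone the median difference was -1.36 and without it 1.63, so its direction depended on which sh-Control RA arrays were used.

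The same held for the 5 primitive endoderm transcription factors, of which none was called. Their median was 0.54, with -1.57 for array 1 alone and 0.93 without it. Gata6 rose by 4.08 in sh-Control and 4.53 in sh-SIRT1, a difference of 0.46 ± 0.71; it was called at 1.13 without array 1 (adjusted p = 0.04) and was -1.57 with array 1 alone.

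Of 24 pluripotency genes measured, none was called in either direction, 21 values were below 0, and the median was -0.40, beside -0.04 over all genes. It stayed between -0.53 and -0.32 over the alternatives run. Nanog, a core pluripotency factor, read 3.16, 3.16 and 3.13 in sh-Control vehicle, 4.16, 4.17, 4.75 and 4.73 in sh-Control RA, 3.07, 2.90 and 2.94 in sh-SIRT1 vehicle, and from 3.48 to 3.93 in sh-SIRT1 RA. It rose in both lines, by 1.30 and 0.72, and the lines did not overlap under RA; the difference was -0.58 ± 0.21 (adjusted p = 0.136), which passed with same-numbered arrays paired (-0.60, adjusted p = 0.036). Pou5f1, which encodes OCT4, fell by 0.65 and 0.98 (difference -0.33 ± 0.30, adjusted p = 0.591). The lowest value in the list was that of Tdgf1, a Nodal co-receptor, at -0.90 ± 0.26 (adjusted p = 0.072).

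Over all genes, 1.67% were called higher and 1.94% lower, which stands beside each list here. Of 14 neuroectoderm genes, Nes was called higher and none lower (median 0.30). Of 11 genes of early and paraxial mesoderm only Meox1 was called (median -0.03). The mesoderm genes T and Tbx6 had 0.35 and -0.03, so Meox1 was not accompanied by a call of these markers. Of 11 trophoblast genes, 2 were called higher, none lower, with a median of 0.58: Plet1 and Ascl2, a basic helix-loop-helix factor of the placenta, at 1.15 ± 0.20 (adjusted p = 0.00917). The trophoblast median was 1.03 without sh-Control RA array 2, and 0.34 and 0.35 without arrays 3 and 4. None of 17 germ line genes was called (median 0.26, from 0.05 to 0.46 with 1 array left out).

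The 5 measured genes of the 2-cell-like state, a rare state of stem cell cultures, had the lowest list median at -1.59, with all 5 values below 0 and none called. The median was -1.0 without sh-Control vehicle array 1 and -4.24 within slide 1, where that array is the only sh-Control vehicle array. Their median RA effect was 8.32 for sh-Control and 6.73 for sh-SIRT1, and their mean level was 4.86 to 5.30 over the sh-Control RA arrays and 3.72 to 4.74 over the sh-SIRT1 RA arrays. Several of them are near-identical copies, whose probes may share signal.

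Fibroblast genes, which feeder cells would bring, were examined beside these. Of 13 measured, Fbln1, a matrix protein, was called higher at 0.66 ± 0.14 (limma, adjusted p = 0.019). None was called lower, and over all genes 1.67% were called higher. The median of the 13 was 0.57 (0.37 and 0.38 without sh-Control RA arrays 3 and 4). With same-numbered arrays paired as a block, Fbln1 was not called (adjusted p = 0.059). Their mean level ran from 0.39 to 0.52 in sh-Control vehicle, 0.15 to 0.31 in sh-SIRT1 vehicle, 0.97 to 2.20 in sh-Control RA and 1.61 to 2.24 in sh-SIRT1 RA. Outside the 13, Lum and Postn were above background on no array, while Dcn was so on 0 of 3 vehicle arrays of each line, 2 of 4 sh-Control RA and 6 of 6 sh-SIRT1 RA arrays. Col3a1 was above background on 1 of 3, 0 of 3, 2 of 4 and 6 of 6 arrays in the same order (sh-Control vehicle, sh-SIRT1 vehicle, sh-Control RA, sh-SIRT1 RA). The part of such cells in the differences above was not tested, and in bulk RNA fewer cells of a type and less RNA per cell cannot be told apart.

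Further lists gave few calls, beside 3.61% called over all genes. One of 20 p53 targets was called (Cdkn1a; median -0.01), and 1 of 15 sirtuin and NAD genes: Sirt4, a mitochondrial sirtuin, at -0.76 ± 0.13 (adjusted p = 0.00917), which rose by 0.42 in sh-Control and fell by 0.34 in sh-SIRT1. None was called among 20 mitosis genes (median -0.25, 2 of 20 above 0), 21 of sterol synthesis (0.01), 19 of Polycomb and DNA methylation (-0.04), 18 of Nodal, BMP and Wnt signalling (0.05), 14 of FGF signalling and immediate early genes (0.12), 17 imprinted genes (0.33) and 8 of the interferon response (-0.18). The widest single value among them was that of the imprinted gene Nnat, at 4.48 and not called.

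**Figure D5:**
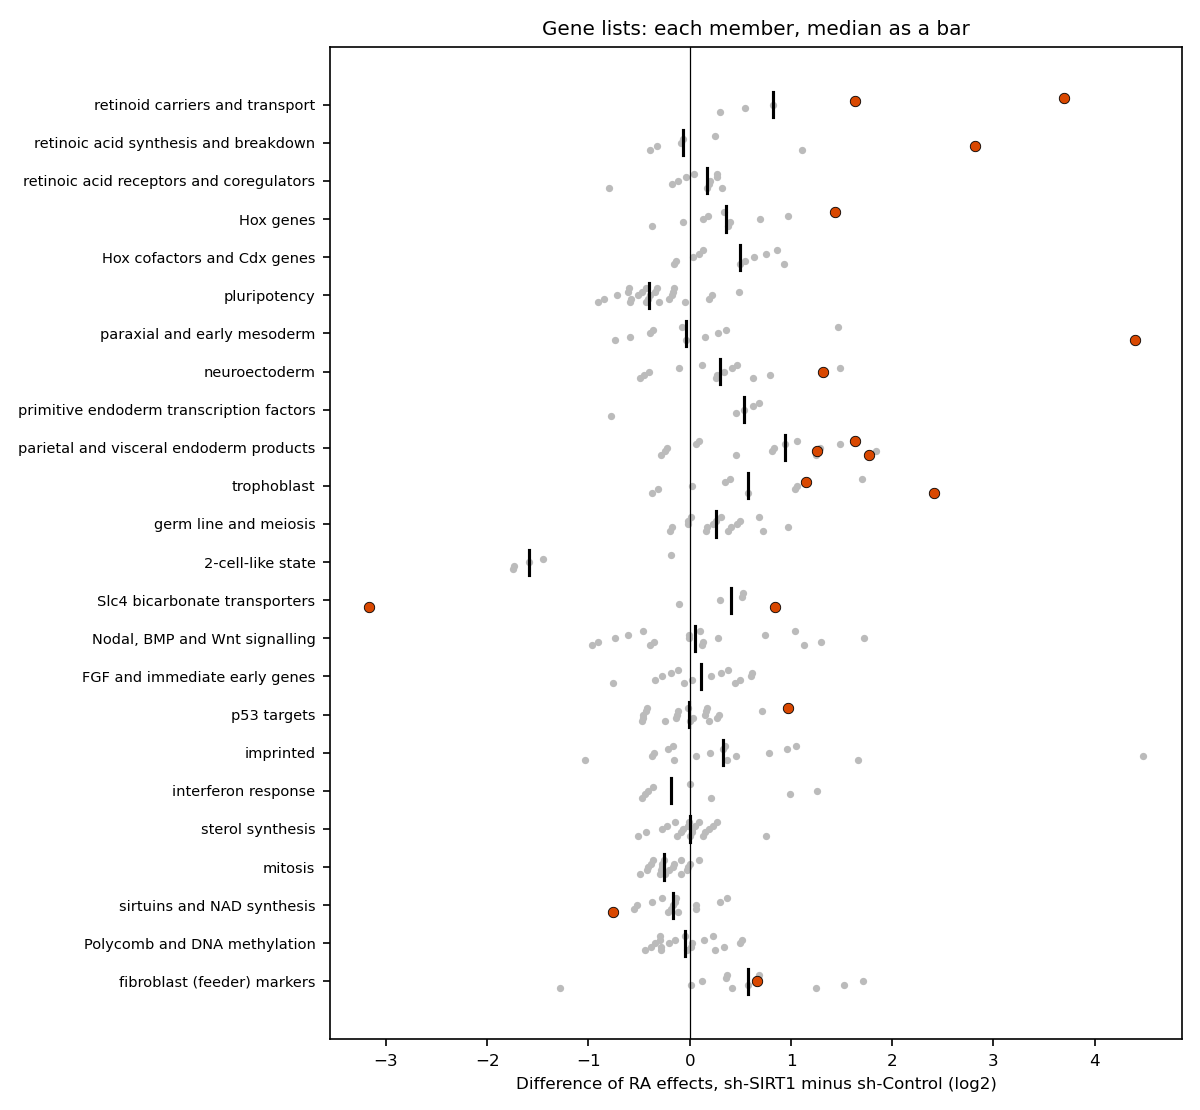
Difference of RA effects (log2, sh-SIRT1 minus sh-Control) for each measured gene of 24 lists, with called genes in orange and the list median as a black bar. Most lists straddle 0, with pluripotency (median -0.40) and the 2-cell-like state (-1.59) to the left and retinoid carriers (0.82) and endoderm products (0.94) to the right.

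The genes induced by RA were also examined as a group. These were the 1485 genes raised by at least 1 log2 unit on the mean of both lines (adjusted p under 0.05 in limma). They were chosen on the same arrays that give the difference, so the choice is not independent of it. Their median RA effect came to 1.46 for sh-Control cells and 1.78 for sh-SIRT1 cells. Of these 1485, 77 were called higher and 24 lower, 6.80% in all beside 3.61% over all genes. Their median difference was 0.31, with 67.7% of values above 0 beside 45.4% over all genes. Without sh-SIRT1 vehicle array 1 that median was 0.17. For the 729 genes lowered as much, the median effects were -1.32 and -1.34. Of these, 13 were called higher and 12 lower, 3.43% in all beside 3.61% over all genes. Over the autosomes and chromosome X, the share called ran from 2.05% (chromosome 8) to 5.71% (chromosome 3).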

How the data were processed

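Total RNA of 16 samples was hybridised to Agilent Whole Mouse Genome 1-colour arrays. The deposited files hold intensity values, which the authors extracted with Feature Extraction 9.5 per the submitters' processing notes (9.5.3.1 per the file headers); the series matrix held equal values on all 45018 spots. Control spots were left out; spots marked as outliers, 87 to 131 on an array, were set to missing. Levels are log2 processed intensity, with each array's 75th percentile subtracted. From 60.3% to 68.6% of spots per array were well above background; the number of arrays limits the precision. The fit took probes that every array of some group measured well above background (26393 of 41174), the brightest standing for its gene, named through RefSeq accessions for 23075 probes and otherwise from the files.

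A mean per group was fitted with limma 3.58.1 in R 4.3.3 (12 residual degrees of freedom, two-sided, Benjamini-Hochberg at 0.05 over 18296 genes), after a check on simulated data. The simulated arrays varied independently, so that check does not cover closely matched arrays such as those found here. Replicate numbers were compared between the lines: over 7 same-numbered pairs, deviations from the group means correlated at 0.48 to 0.58. Differently numbered arrays were not compared, so this cannot show that the numbers pair arrays. The main fit leaves pairing out. A block of same-numbered arrays was run as an alternative, and its value is given where it changes the call of a named gene. Named genes were the 3 markers, the 10 largest called differences in each direction with all groups above background, up to 4 called per list, key RA response and Y-linked genes, and the 4 largest in each direction with exactly 3 groups. Members and lists were chosen with earlier results of these data known. Some genes that the rule or the lists hold are not reported here. Other genes were named after their values were seen. Just inside the rule, with exactly 3 groups above background, 23 of 702 genes were called; just outside, with 2, 26 of 1039.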

Additional observations from a re-analysis of the deposited data

Results flagged for a closer look

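The test of the difference between the lines' RA effects singled out 37 named genes. Those with a higher difference in sh-SIRT1 were Meox1 (4.40), Crabp2 (3.70), Apol6 (3.06), Rusc2 (2.96), Tgfbi (2.89), Fbn2 (2.82), Dhrs3 (2.82), Btbd17 (2.72), Dusp26 (2.53), Dmgdh (2.42), Plet1 (2.41), Pld1 (2.37), Ndnf (2.16), Lrp2 (1.77), Rbp4 (1.63), Hoxc5 (1.44), Nes (1.31), Nid1 (1.26), Ascl2 (1.15), Cdkn1a (0.97), Slc4a3 (0.84) and Fbln1 (0.66). Those with a lower difference were Sirt4 (-0.76), Hdgfl3 (-0.96), Olfr658 (-1.17), Map3k2 (-1.18), Rgs9bp (-1.32), Net1 (-1.40), Stxbp6 (-1.42), Hsf2 (-1.44), Slc25a40 (-1.50), Calcr (-1.51), Irx2 (-1.57), Tbc1d12 (-1.63), Sox18 (-1.69), Bhlhe22 (-1.84) and Slc4a7 (-3.17).

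Single arrays stood far from the rest of their group in 13 of the 96 groups of 4 or 6 arrays examined. No chance rate can be set beside this count, since the named genes share the same arrays and some arrays lie close together. Of the 13, 6 lay on sh-Control RA array 1: Ddx3y (0.22, the others -8.12 to -6.92), Eif2s3y (1.97, others -2.89 to -2.51), Uty (-5.08, others -7.94 to -7.68), Gata6 (3.02, others 0.07 to 0.49), Rusc2 (1.93, others 0.63 to 0.83) and Tbc1d12 (-0.64, others 0.06 to 0.13). On sh-Control RA array 2 they were Btbd17 (-1.88, others -3.26 to -3.23) and Plet1 (-0.59, others 0.91 to 1.14). On sh-SIRT1 RA array 1 they were Rusc2 (1.30), Cdkn1a (0.46) and Rgs9bp (-3.27), on array 2 Apol6 (1.71), and on array 6 Pou5f1 (1.97). Differences of Y-linked genes were 5.95 for Ddx3y, 2.66 for Eif2s3y and 1.71 for Uty, and none of them passed the test with all arrays. Without sh-Control RA array 1 all 3 passed, at 7.92 (adjusted p = 1.4e-06), 3.82 (2.4e-05) and 2.38 (0.0051), and with array 1 alone the values were 0.01, -0.80 and -0.32.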

How the results depend on the processing

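The count of called genes depended on the processing. All 593 called genes kept their sign with slide as a block, normexp, array weights, median centring, the replicate block, closely matched arrays averaged and within slide 1, and 592 with sh-Control RA array 1 alone; they were chosen on these same arrays, so their signs are no independent evidence. Against 593 called (274 higher, 319 lower, 194 by at least 1 log2 unit), the same counts were 21, 14, 7 and 16 after normexp; 239, 122, 117 and 100 without a filter on background; 76, 46, 30 and 42 with slide as a fixed block (9 residual degrees of freedom); 1478, 738, 740 and 397 with the replicate block that pairs same-numbered arrays (5 residual degrees of freedom); 8748, 3448, 5300 and 1211 with array weights; and 173, 80, 93 and 109 with sh-Control RA array 1 alone. Averaging closely matched arrays, chosen after seeing the data, gave 0 in limma for each of these counts (670 genes at an unadjusted p under 0.05). Array weights were 5.1 and 4.17 for the closely matched sh-Control RA arrays 3 and 4, but 0.111 and 0.151 for arrays 1 and 2. The counts with array weights therefore rest mostly on arrays 3 and 4 in that group. Median centring gave 153 higher. Leaving out 1 array gave 182 to 1682 called, 100 to 708 higher, 82 to 974 lower and 81 to 500 by at least 1 log2 unit. The count fell to 182 and 197 when sh-Control vehicle array 3 or 2 was left out, to 379, 193 and 196 when sh-SIRT1 vehicle array 1, 2 or 3 was left out, 260 and 280 without sh-Control RA arrays 3 and 4, and 348, 356, 386 and 349 without sh-SIRT1 RA arrays 3, 4, 5 and 6. It rose to 1024 without sh-Control vehicle array 1 and 1682 without sh-Control RA array 1. The cause was not tested.

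Of 37 named called genes, none changed sign and 9 passed with sh-Control RA array 1 alone, 10 with slide as a block, 4 after normexp and 34 with the replicate block, which ended the calls of Hoxc5, Olfr658 and Fbln1 (0.66, adjusted p = 0.059), added Nanog and Cyp26a1 and changed no other call among the named genes. Rusc2, Tgfbi and Slc4a7 kept theirs in the 30 alternatives with a test listed at the start. Values of uncalled genes that changed sign in an alternative with a test were Eif2s3y (-0.80), Uty (-0.32), Gata6 (-1.57) and Cyp26a1 (0.72) with array 1 alone; Gata6 (-0.32) with slide as a block; and Stra8 with the replicate block (-0.0038), array weights (-0.031) and with 1 array left out (-0.14 without sh-SIRT1 vehicle array 1; range to 0.57). Within slide 1, with 1 array per group and no test, Stra8 (-0.80) and Pou5f1 (0.59) had the opposite sign. Near background, differences such as those of Crabp2 and Bhlhe22 shrank after normexp. Leaving out 1 array also moved the medians of neuroectoderm (to 0.51 without sh-SIRT1 vehicle array 1), endoderm products (0.46 and 0.47 without sh-Control RA arrays 3 and 4), primitive endoderm factors (0.26 and 0.29), Slc4 transporters (0.18 to 0.64), receptors (from 0.06) and sirtuin genes (-0.27 without sh-Control RA array 1) by over 1.5 times. List medians near 0 changed sign in some alternatives, for example synthesis and breakdown enzymes (-0.07, and 0.23 with array weights).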
